A study of Mus musculus with 4 samples.

Results

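The genes described here are 10 secreted or surface proteins of epithelial inflammation, out of 52636 genes in the deposited count table. They are the cytokines Il33 and Csf1, the chemokines Cxcl1, Cxcl2, Cxcl5 and Cxcl12, the acute-phase and defence proteins Saa3, Lcn2 and Slpi, and the receptor Cd14. They were taken by gene name, and were chosen because several had higher counts with the FAK hairpin and because Il33 was also higher with norepinephrine in both lines. Those values therefore describe how the genes were chosen. The cells were of the Myc-CaP line, established from a prostate tumour of an FVB Hi-Myc mouse, in which a MYC transgene is expressed in the prostate. All 4 groups carried stably transfected short hairpin RNAs, either a negative control (shNC) or hairpins against focal adhesion kinase (shFAK), the product of Ptk2. Each line was kept for 24 h in vehicle or in 10 µM norepinephrine, the catecholamine released by sympathetic nerves. Each group was 1 RNA-seq library. Differences therefore have no replicate check, and a hairpin effect cannot be told apart from any other difference between the lines. Whether each line was a clone or a pool is not given in the sources used here. Below, a pair of values for 1 line lists vehicle first and norepinephrine second.

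Library totals ran from 23410486 to 29948640 counts. Ptk2 had 3547 and 3158 counts in shNC and 1294 and 1248 in shFAK. The shFAK norepinephrine library held 119 genes with at least 8 counts there and at most 2 in each other library, against 4 to 9 such genes in the others. Of 10 prostate epithelial markers, 4 passed the filter on low counts. Among these, Hoxb13 had 1095 to 1321 counts, Krt8 48 to 165 and Krt14 69 to 109. Of those that did not pass, Epcam had at most 15 counts, Cdh1 at most 7 and Krt18 at most 4, and Tmprss2 had 0. The markers were thus mixed and the name epithelial rests on the origin of the line, so the genes are called the inflammatory genes below. Of 12 leukocyte markers only Cd68 passed the filter on low counts, and of 4 endothelial markers none did. Ptprc, which encodes CD45, had at most 1 count, and Adgre1, Itgam, Tyrobp and Cd3e had 0 in all 4 libraries.

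As background, IL-33 is an alarmin held in the nucleus of epithelial cells and released on damage, where it signals through the receptor ST2 (Il1rl1) and its partner Il1rap. CXCL1, CXCL2 and CXCL5 are related chemokines that draw neutrophils through CXCR2, whereas CXCL12 acts through CXCR4 and ACKR3. CSF-1 sustains macrophages through CSF1R. SAA3, lipocalin-2 and SLPI are secreted by inflamed epithelia: SAA3 is an acute-phase apolipoprotein, lipocalin-2 binds bacterial siderophores and SLPI inhibits neutrophil elastase. CD14 carries bacterial lipopolysaccharide to TLR4. NF-kB and C/EBP factors are known regulators of many of these genes.

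The promoter letters of the inflammatory genes are shown as a description only. That several of these genes were higher in shFAK is how they were chosen. A link of the letters to that difference was not tested. RefSeq promoters (GRCm38.p6, the assembly that mm10 names) were held for 8 of the 10 genes, with 9 starts since Il33 has a pair of them. Cxcl5 and Cd14 had no entry. The 250 bases before each start were searched on both strands. The NF-kB consensus was found before the starts of Cxcl1, Cxcl2 and Csf1, and of Cxcl3, a cluster neighbour that is not a member. In all, 3.9% of 32851 promoters held it. The stretches below, 5′ to 3′ on the strand of the gene, have the match in capitals. In Cxcl1, Cxcl2 and Cxcl3 the capitals hold a pair of overlapping matches, 1 per strand. They are chr5:90891149-90891209, plus strand, for Cxcl1; chr5:90903777-90903837, plus strand, for Cxcl2; chr5:90786003-90786063, plus strand, for Cxcl3; and chr3:107760589-107760648, minus strand, for Csf1.
Cxcl1: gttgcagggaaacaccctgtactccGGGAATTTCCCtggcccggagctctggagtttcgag
Cxcl2: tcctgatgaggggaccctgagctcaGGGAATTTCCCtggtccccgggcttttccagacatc
Cxcl3: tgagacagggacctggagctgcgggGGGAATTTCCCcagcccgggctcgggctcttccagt
Csf1: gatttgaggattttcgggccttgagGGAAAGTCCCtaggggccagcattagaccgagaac

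The C/EBP-type letters TTGCNNAA, read on either strand, were found for Saa3, Lcn2, Slpi and the Il33 start that lies inside the gene, and in 9.56% of all promoters. The match began 99 bases before the start in Saa3, 216 in Lcn2, 241 in Slpi and 85 in Il33. The stretches are chr7:46715743-46715800, minus strand, for Saa3; chr2:32387923-32387980, minus strand, for Lcn2; chr2:164356700-164356757, minus strand, for Slpi; and chr19:29945680-29945737, plus strand, for Il33.
Saa3: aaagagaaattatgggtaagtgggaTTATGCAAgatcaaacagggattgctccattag
Lcn2: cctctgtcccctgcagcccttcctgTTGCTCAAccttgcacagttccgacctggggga
Slpi: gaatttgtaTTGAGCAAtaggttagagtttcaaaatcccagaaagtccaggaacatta
Il33: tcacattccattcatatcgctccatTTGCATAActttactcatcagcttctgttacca

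The Lcn2 and Slpi stretches also lie inside the gene spans of the deposited table, which reach further than these RefSeq starts. None of the 9 starts had the cAMP response element TGACGTCA (1.55% of promoters) or the AP-1 letters TGANTCA (6.75%) in this window. A match describes the letters and is not evidence of binding.

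The inflammatory genes spanned a wide range of levels. Levels are given as CPM, the counts scaled to a common TMM effective library size, and between genes as CPM per kb of the gene model in the deposited table. In shNC vehicle the highest value per kb was that of Csf1 at 10.2 (99% Poisson counting interval 9.53 to 10.8), followed by Cd14 at 9.60 (8.47 to 10.8) and Cxcl5 at 8.84 (7.85 to 9.93). The intervals of Csf1, Cd14 and Cxcl5 all overlapped one another, so these genes could not be ordered. Slpi at 3.60, Il33 at 3.56 and Cxcl1 at 3.46 could not be ordered either, and Cxcl2, Lcn2 and Saa3 lay at 0.245, 0.116 and 0.0907. In shFAK norepinephrine the order differed, and Cxcl5 was first at 39.8 CPM per kb (37.4 to 42.2). Slpi at 21.0 (18.8 to 23.3) and Il33 at 18.7 (17.4 to 20.1) came next. Both were ahead of Csf1 at 13.0 (12.2 to 13.8) and Cd14 at 11.5 (10.2 to 13.0). The intervals of Slpi and Il33 overlapped, as did those of Csf1 and Cd14, so neither pair could be ordered within itself.

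**Figure D1:**
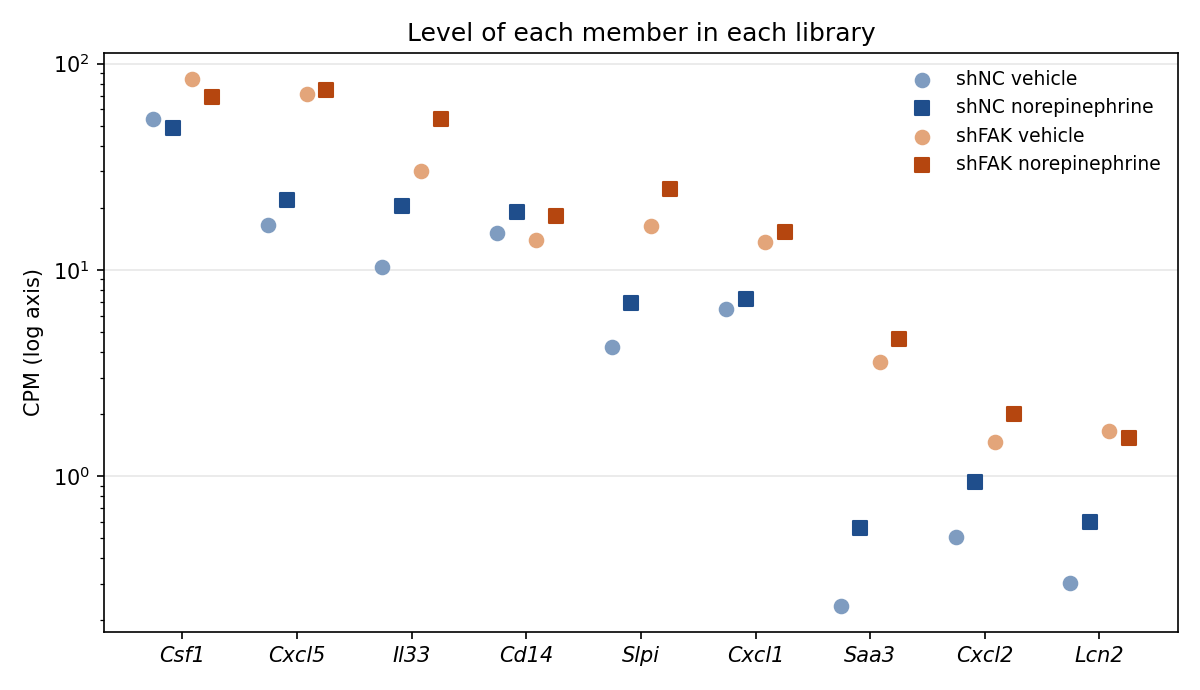
CPM on a log axis (vertical) of 9 of the 10 genes (horizontal), 1 point per library, circles for vehicle and squares for norepinephrine, blue for shNC and orange for shFAK. Cxcl12, with 0 CPM in 3 libraries, is not drawn. Both shFAK points lie above both shNC points for every gene drawn except Cd14.

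Of the 10 genes, 9 passed the filter of at least 1 CPM, by library totals, in at least 1 library. Cxcl12 did not: it had 0 counts in 3 libraries, where a floor of 3 counts is worth 0.101 to 0.113 CPM, and 2 in shFAK norepinephrine, the library with the excess of genes found at low counts. Saa3, Lcn2 and Cxcl2 passed only through the shFAK libraries, since they were below 1 CPM in both shNC libraries, so their being higher in shFAK is partly built into the filter.

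Setting shFAK beside shNC at the same treatment asks which genes differ with the FAK hairpin. The size rule required that CPM differ at least 2-fold, as a log2 ratio computed after adding a prior count of 2, and that the exact 99% counting interval hold no 0. It was met in the higher direction by 7 of the inflammatory genes under vehicle, where 1.42% of the 12351 genes tested met it, and by 7 under norepinephrine, where 2.62% did. They were the same 7 genes in both: Il33, Cxcl5, Cxcl1, Cxcl2, Saa3, Lcn2 and Slpi. No inflammatory gene met the rule in the lower direction (background 0.462% and 0.632%). Csf1 was also past its counting interval, which made 8 genes higher in each pair by that looser reading, where 21.0% and 27.7% of all genes were, and none lower, where 20.9% and 25.7% were. The genes were chosen on this contrast, so nothing is read from these counts. In these bulk cultures, fewer cells of a type and less RNA per cell cannot be told apart.

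Among the cytokines, Il33 (ENSMUSG00000024810, mm10 chromosome 19, 29925114 to 29960718, plus strand) had 304 and 541 counts in shNC and 799 and 1295 in shFAK. These are 10.3, 20.3, 30.1 and 53.9 CPM, so each of the 4 libraries was separate from the next and the highest level came with both shFAK and norepinephrine. The log2 ratio of shFAK to shNC was 1.55 (1.30 to 1.81) under vehicle and 1.41 (1.22 to 1.60) under norepinephrine. Csf1 (chromosome 3, 107741048 to 107760469, minus strand) had 1591 and 1306 counts in shNC and 2225 and 1649 in shFAK. It was higher in both shFAK libraries by less than the size rule asks, with log2 ratios of 0.64 (0.52 to 0.77) and 0.49 (0.35 to 0.63).

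Cxcl5 was the most abundant chemokine of the set. Cxcl5 (ENSMUSG00000029371, chromosome 5, 90759360 to 90761624, plus strand) had 488 and 578 counts in shNC and 1884 and 1779 in shFAK, or 16.5, 21.7, 71.0 and 74.1 CPM. Both shFAK libraries were far above both shNC libraries, at log2 ratios of 2.10 (1.92 to 2.30) under vehicle and 1.77 (1.59 to 1.95) under norepinephrine. Cxcl1 had 192 and 193 counts in shNC and 361 and 366 in shFAK, log2 ratios of 1.06 (0.74 to 1.41) and 1.07 (0.74 to 1.41). Cxcl1 therefore sat just inside the size rule, with intervals that reach below a 2-fold difference. Cxcl2 had 15 and 25 counts in shNC and 39 and 48 in shFAK, log2 ratios of 1.41 (0.40 to 2.81) and 1.03 (0.16 to 2.09). Cxcl2 shares a stretch of 114 bases at 98.3% identity with Cxcl3, which had 2 to 8 counts per library, and reads from that stretch cannot be assigned to either gene with certainty. Cxcl5 shares 103 bases with a transcript of Dock3.

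Of the secreted defence proteins, Saa3 had the highest ratio of the 9 genes in both pairs. Saa3 (chromosome 7, 46711998 to 46715700, minus strand) had 7 and 15 counts in shNC and 95 and 111 in shFAK. Its log2 ratios were 3.55 (2.55 to 5.75) and 2.88 (2.05 to 4.22), or 11.7-fold and 7.37-fold, resting on few counts in shNC. Transcripts of Saa3 share stretches of 100 to 132 bases, at 95% identity or more, with those of 59 other annotated genes, and counts from those stretches are uncertain. Lcn2 (chromosome 2, 32384633 to 32388252, minus strand) had 9 and 16 counts in shNC and 44 and 37 in shFAK, log2 ratios of 2.19 (1.12 to 4.08) and 1.26 (0.23 to 2.61). Slpi (chromosome 2, 164354070 to 164389095, minus strand) rests on more counts, with 126 and 185 in shNC and 432 and 595 in shFAK. Its log2 ratios were 1.92 (1.56 to 2.33) and 1.82 (1.52 to 2.16), so its shFAK level was 3.78-fold and 3.54-fold that of shNC.

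Cd14 (chromosome 18, 36725074 to 36726736, minus strand) did not share this pattern. It had 447 and 508 counts in shNC and 372 and 436 in shFAK, log2 ratios of -0.11 (-0.37 to 0.16) and -0.07 (-0.32 to 0.18). Cd14 is also a macrophage gene. The summed level of the 12 leukocyte markers was 1.11 and 1.39 CPM in shNC and 1.92 and 1.75 in shFAK, against 14.0 to 19.1 CPM for Cd14 alone. That of 7 fibroblast markers was 9.72 and 7.65 CPM in shNC and 13.3 and 13.5 in shFAK, nearly all of it Pdgfra, with Dcn, Lum and Col3a1 at 0. Col1a1, a fibroblast collagen, had 11 and 4 counts in shNC and 24 in each shFAK library, and met the size rule under norepinephrine at a log2 ratio of 2.26 (0.82 to 5.43). Col1a1 was below 1 CPM in both shNC libraries and passed the filter only through shFAK, so its direction is partly built into the filter. The part of fibroblast-like cells in the hairpin ratios was not tested. Krt8, an epithelial keratin, went the other way, with 153 and 165 counts in shNC and 50 and 48 in shFAK.

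**Figure D2:**
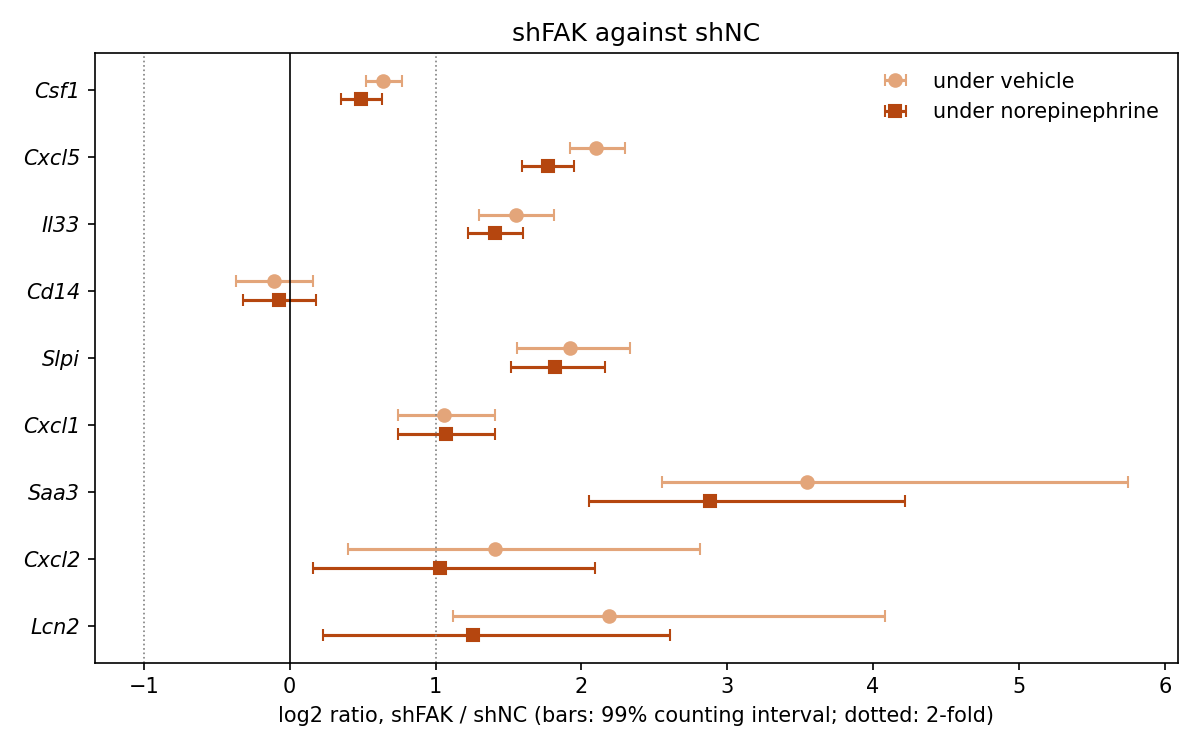
Log2 ratio of shFAK to shNC (horizontal) for 9 genes (vertical), circles under vehicle and squares under norepinephrine, with 99% counting intervals as bars and dotted lines at a 2-fold difference. Intervals are narrow for Csf1 and Cxcl5 and wide for Saa3, Cxcl2 and Lcn2. Cd14 is the only gene whose bars cross 0.

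Setting norepinephrine beside vehicle within a line asks which genes respond to the catecholamine there. Of this contrast, the rule that chose the genes used only the Il33 values. The ratios still share their libraries with the hairpin ratios on which the genes were chosen. A low count in shNC vehicle raises both the hairpin ratio under vehicle and the norepinephrine ratio in shNC. The norepinephrine ratios are therefore not independent of the choice. None of the inflammatory genes met the size rule in either line, in either direction. Of all genes tested, 0.364% met it higher in shNC and 0.696% in shFAK, and 0.494% and 0.178% met it lower. The counting interval left out 0 in the higher direction for 4 of the 9 genes in shNC, namely Il33, Cxcl5, Slpi and Cd14, against 21.7% of all genes, and in the lower direction for none, against 22.8%. In shFAK it did so for Il33, Slpi and Cd14, against 10.4% of all genes, and in the lower direction for Csf1, against 12.3%. With so many genes past their counting interval, a single such gene is not set apart from the rest.

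Slpi followed Il33 in direction. Its level was 4.25 CPM in shNC vehicle and 6.94 in shNC norepinephrine, a log2 ratio of 0.70 (0.27 to 1.15), and 16.3 and 24.8 CPM in shFAK, a log2 ratio of 0.60 (0.37 to 0.84). For Il33 the log2 ratios were 0.98 (0.72 to 1.26) in shNC, just short of the size rule, and 0.84 (0.67 to 1.01) in shFAK. Cd14, which did not differ between the lines beyond counting error, was at 15.1 and 19.1 CPM in shNC and at 14.0 and 18.2 CPM in shFAK. The norepinephrine ratios of Cd14 were 0.33 (0.09 to 0.58) and 0.37 (0.11 to 0.64). With the trend of the ratios with gene length taken off, the Cd14 ratio in shNC was 0.18 and its interval held 0.

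Cxcl5 was higher with norepinephrine in shNC alone by this measure, at a log2 ratio of 0.39 (0.17 to 0.63), against 0.06 (-0.06 to 0.18) in shFAK. Cxcl1 was at 0.16 in both lines, with intervals of -0.23 to 0.55 and -0.12 to 0.44. Csf1 had ratios below 0, at -0.13 (-0.27 to 0.01) in shNC, where the interval reached past 0 except with scaling by library totals, and -0.29 (-0.41 to -0.17) in shFAK. The low-count genes could not be placed. Saa3 was at 1.03 (-0.51 to 3.28) and 0.36 (-0.16 to 0.90), Cxcl2 at 0.80 (-0.37 to 2.24) and 0.42 (-0.39 to 1.29), and Lcn2 at 0.83 (-0.64 to 2.77) and -0.10 (-0.98 to 0.76). All 3 of these intervals held 0 in both lines, so a difference was not detectable at this depth. Leaving out Il33, the median log2 ratio of the other 8 genes was 0.55 in shNC and 0.26 in shFAK, where the median of all genes was 0. Over all genes these ratios were lower for longer genes (Spearman rho across genes -0.49 in shNC and -0.29 in shFAK), and 8 of the 9 members are shorter than the median gene of 3981 bases. With that trend taken off, the medians of the 8 genes were 0.40 and 0.20. The highest shNC ratios of these 8 genes were those of Saa3, Lcn2 and Cxcl2. Those low-count genes could not be placed and had passed the filter only through shFAK, so no shared response is read from the medians.

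**Figure D3:**
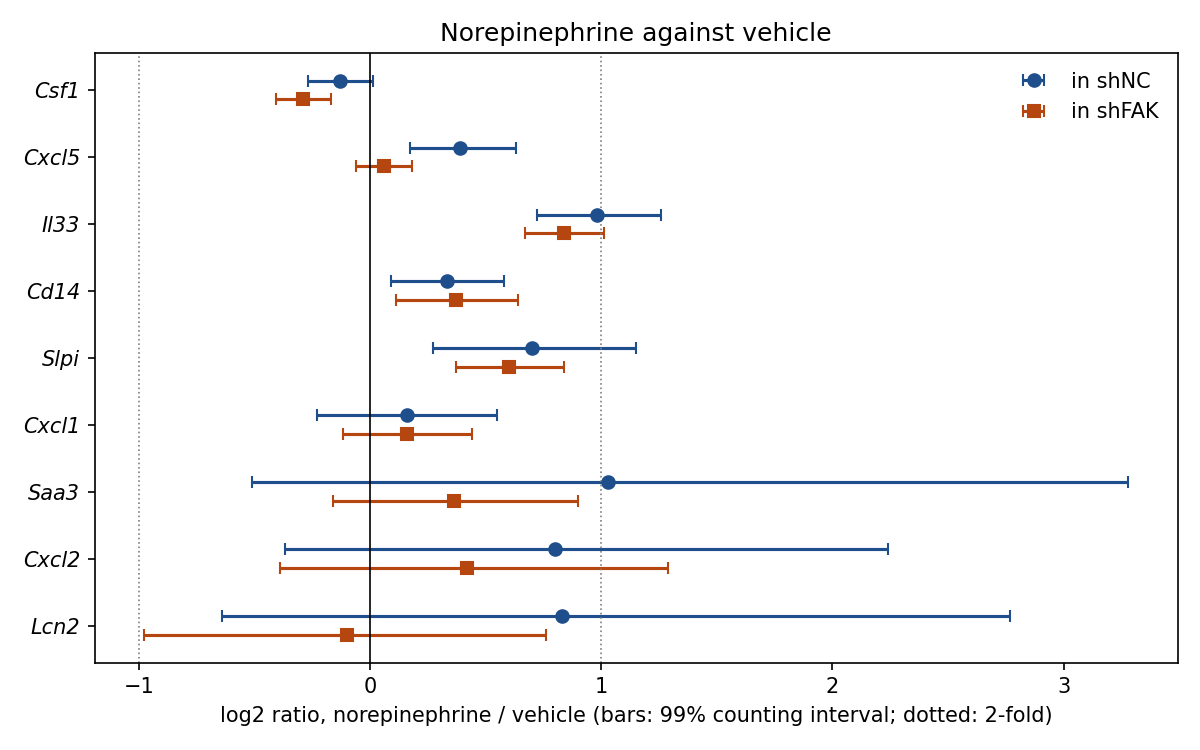
Log2 ratio of norepinephrine to vehicle (horizontal) for 9 genes (vertical), circles in shNC and squares in shFAK, with 99% counting intervals as bars and dotted lines at a 2-fold difference. Il33, Slpi and Cd14 lie above 0 with both bars, from 0.33 to 0.98. The bars of Saa3, Cxcl2, Lcn2 and Cxcl1 cross 0 in both lines.

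The series also allows the norepinephrine ratios of the lines to be subtracted, shFAK minus shNC. This difference uses the libraries of the hairpin ratios too, so it is not independent of how the genes were chosen. None of the 9 genes met the size rule for this difference, where 0.672% of all genes met it higher and 0.243% lower. The Il33 difference was -0.14 on the log2 scale (-0.45 to 0.17), that of Slpi -0.09 (-0.58 to 0.39) and that of Cd14 0.04 (-0.32 to 0.39). Intervals of this width allow the response of Il33 to differ by up to 0.45 between the lines. Cxcl5 alone had an interval without 0, at -0.33 (-0.59 to -0.07). The same held for 11.1% of all genes in that direction. The Csf1 difference of -0.16 (-0.34 to 0.03) was -0.21 (-0.39 to -0.02) with no filter on low counts and -0.23 (-0.41 to -0.04) with the gene-length trend taken off, so its side of 0 depends on these settings. For Lcn2 the signs of the ratios were opposite in the lines, but the difference of -0.94 had an interval from -2.56 to 0.69.

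Cxcl5, Cxcl1 and Cxcl2 lie in a cluster of 7 chemokine genes that spans 146.6 kb of chromosome 5, from 90759360 to 90905938. Of its other genes, Ppbp differed between the lines in the opposite direction and Cxcl15 in the same direction. Pf4 and Cxcl3 could not be placed. Ppbp, the precursor of platelet basic protein, starts 6894 bases after Cxcl5 ends, and had 119 and 178 counts in shNC and 64 and 102 in shFAK. The hairpin ratios of Ppbp were -0.72 (-1.34 to -0.15) and -0.64 (-1.13 to -0.19), opposite in sign to those of Cxcl5. With norepinephrine, Ppbp was at log2 ratios of 0.72 (0.29 to 1.19) in shNC and 0.80 (0.21 to 1.44) in shFAK. Cxcl15, a lung-type chemokine, was at 0.60 (0.31 to 0.90) and 0.34 (0.06 to 0.63) in the hairpin pairs, with 288 to 392 counts per library. Pf4, platelet factor 4, had 17 to 29 counts per library, and its intervals held 0 in both hairpin pairs. Cxcl3 had 2 to 8 counts per library. Its NF-kB letters are the same as those of Cxcl1 and Cxcl2, and a link of the letters to the counts was not tested.

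**Figure D4:**
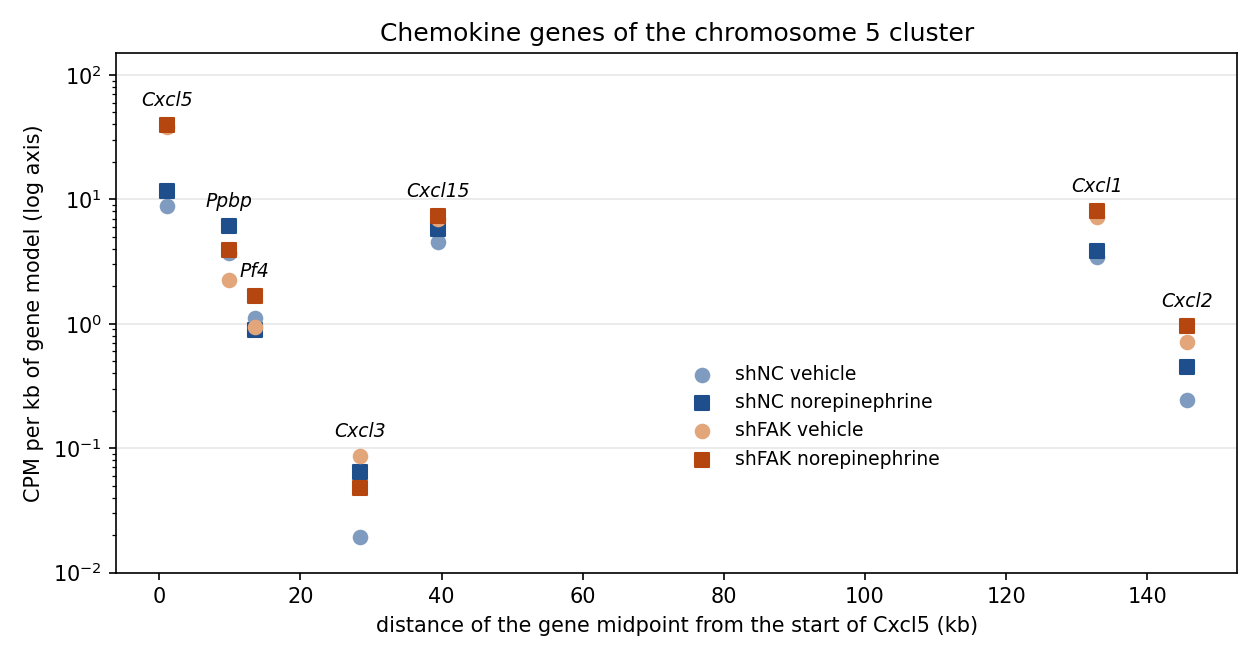
CPM per kb of gene model on a log axis (vertical) for the 7 chemokine genes, placed by the distance in kb of their midpoint from the start of Cxcl5 (horizontal), with 1 point per library. The shFAK points of Cxcl5, Cxcl1 and Cxcl2 lie above their shNC points, while those of Ppbp lie below at matched treatment.

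The serum amyloid genes on chromosome 7 were few in counts. Saa2, an acute-phase apolipoprotein, had 8 and 10 counts in shNC and 27 in each shFAK library, log2 ratios of 1.66 (0.42 to 3.71) and 1.41 (0.19 to 3.19), and met the size rule in both pairs. Saa2 was below 1 CPM in both shNC libraries and passed the filter only through shFAK, so this direction is partly built into the filter. Saa1 had 0 counts in both shNC libraries and 3 and 4 in shFAK. Saa4 had 0 in all libraries. Between Saa3 and the end of the next gene that passed the filter lay 1318 bases. That gene, Saal1, named here for its place next to Saa3, was at -0.17 and -0.40.

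The genes around these proteins were taken from 6 lists of 124 genes, of which 63 passed the filter. Over all genes the hairpin ratios were higher for longer genes (Spearman rho across genes 0.32 under vehicle and 0.47 under norepinephrine). Of the genes named below, Jak1, Ikbkg, Il6ra and Il6st are long, at 7227 to 11099 bases, and Mif is short, at 745. The part of length in the ratios of single listed genes was not tested. Over all lists 3 genes met the size rule higher in shFAK under vehicle and 2 under norepinephrine, and none lower. These are 4.76% and 3.17% of the listed genes that passed, beside 1.42% and 2.62% of all genes, so the share under norepinephrine is near that of all genes. No listed gene met it with norepinephrine in either line. Among 22 NF-kB regulators that passed, none met the rule in any comparison. Their median log2 ratio of shFAK to shNC was 0.05 under vehicle and 0.11 under norepinephrine, beside 0.003 and 0.024 for all genes. Nfkbiz, the inducible nuclear cofactor IkB-zeta, was at 0.60 and 0.73, on 578 to 1075 counts per library. Relb, a subunit of the alternative pathway, was at -0.37 and -0.73, and Nfkb2, its usual partner, at -0.30 and -0.31. Ikbkg, the scaffold of the IKK complex, was at 0.26 and 0.43. Relb and Ikbkg share short stretches with 34 and 20 other annotated genes. With norepinephrine the NF-kB median stood at -0.10 for shNC and -0.01 for shFAK, with the kinase gene Map3k7 at -0.38 and -0.20 and the feedback inhibitor Tnfaip3 at -0.31 and -0.22.

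Of 15 genes of the IL-6 family, STAT3 and C/EBP list, 12 passed and none met the size rule. Cebpb, an acute-phase transcription factor, had 1922 and 3162 counts in shNC and 1886 and 2127 in shFAK. Norepinephrine over vehicle gave a log2 ratio of 0.87 (0.76 to 0.98) in shNC and 0.32 (0.20 to 0.44) in shFAK, a difference of -0.55 (-0.71 to -0.39). Cebpb shares 318 bases with another annotated gene. The receptor subunit Il6st was at 0.40 and 0.66 in the hairpin pairs, the kinase Jak1 at 0.29 and 0.53, Il6ra at 0.32 and 0.47 and Cebpd at 0.62 and 0.18. The list medians of the hairpin ratios were 0.26 and 0.16.

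Of 16 receptors and binding partners of the inflammatory genes, 7 passed the filter, and Cxcr2, Cxcr4, Ackr1 and Fpr2 had 0 counts in all libraries. Cxcr1 had 4 counts in shFAK norepinephrine and none elsewhere. The list medians of the hairpin ratios were 0.20 and 0.42. Ackr3, a scavenging receptor of CXCL12, had 486 and 483 counts in shNC and 863 and 755 in shFAK. Its log2 ratios of 0.98 (0.78 to 1.20) and 0.79 (0.58 to 1.02) fell short of the size rule. Lbp, the lipopolysaccharide-binding protein, was at 0.70 and 0.60, and Tlr4 at 0.55 and 0.70. Il1rl1, the IL-33 receptor, had 278 and 357 counts in shNC and 180 and 308 in shFAK. The norepinephrine ratios of Il1rl1 were 0.51 (0.21 to 0.82) in shNC and 0.91 (0.57 to 1.28) in shFAK, below a 2-fold difference. Both intervals left out 0, as did those of 21.7% and 10.4% of all genes in that direction. Il33 was chosen for being higher with norepinephrine in both lines, so nothing is read from ligand and receptor together. The norepinephrine ratios of Il1rap were -0.18 and 0.04. In the hairpin pairs Il1rl1 was at -0.46 and -0.06, not in the direction of Il33.

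Of 25 other chemokines, 7 passed the filter and none met the size rule. Their median hairpin ratios were 0.04 and 0.24. Cx3cl1, the membrane-bound fractalkine, was at 0.63 and 0.78, on 193 to 299 counts per library. Ccl28 was at 0.04 and 0.24 on 26 to 39 counts. Of 19 other cytokines, 7 passed, and the medians were 0.25 and 0.14. Tnfsf10, the death ligand TRAIL, met the rule under vehicle alone, with log2 ratios of 1.36 (0.72 to 2.13) and 0.90 (0.33 to 1.53). Tgfb2 was at 0.88 and 0.55. Il34, the other ligand of CSF1R, had 855 and 865 counts in shNC and 535 and 549 in shFAK, log2 ratios of -0.52 and -0.50, opposite in sign to Csf1. Mif was at -0.25 and -0.52 and shares sequence with 6 other annotated genes. Flt3l was at -0.59 and 0.14 on 22 to 38 counts.

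Of 26 other acute-phase and defence proteins, 8 passed the filter, and 2 of them, Saa2 and C3, met the size rule under vehicle and under norepinephrine. C3, the central complement protein, had 20 and 22 counts in shNC and 82 and 56 in shFAK, log2 ratios of 2.08 (1.28 to 3.23) and 1.42 (0.56 to 2.53). Like Saa2, it was below 1 CPM in both shNC libraries and passed the filter only through shFAK. The medians of the list were 0.34 and 0.35. Orm1, an acute-phase carrier protein, was at 0.53 and 0.56. Hp, haptoglobin, was at 0.46 (-0.51 to 1.52) and 0.14 (-0.76 to 1.06), on 27 to 37 counts per library. Wfdc2, a relative of Slpi in the WAP family, was at -0.50 (-1.41 to 0.32) and -0.63 (-1.45 to 0.11), on 33 to 68 counts. The intervals of Hp and Wfdc2 held 0 in both pairs. Cp, ceruloplasmin, the most abundant of these named genes by counts, was at -0.08 and -0.22 in the hairpin pairs and at -0.48 and -0.62 with norepinephrine.

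**Figure D5:**
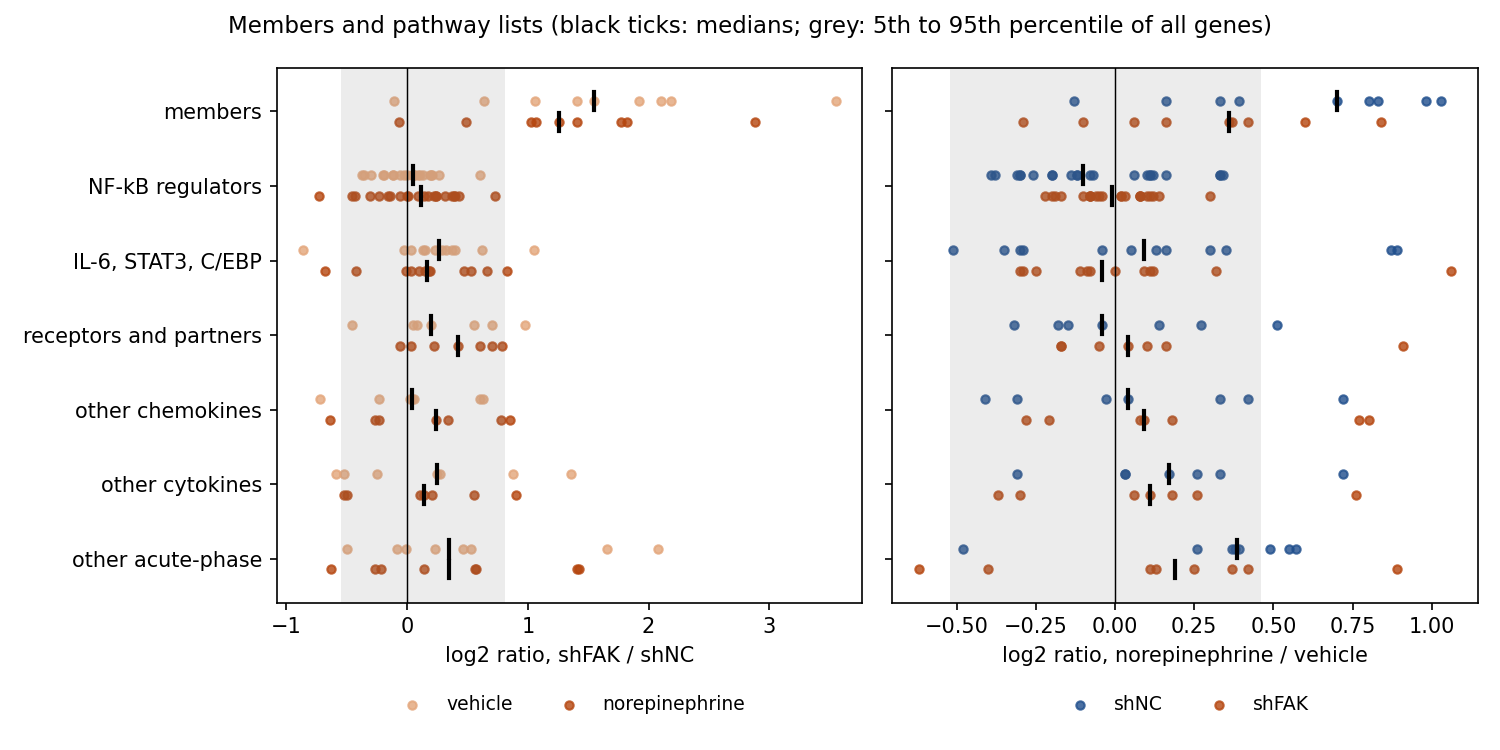
Log2 ratios (horizontal) of the 9 measured inflammatory genes ("members") and of the genes of 6 lists that passed the filter (vertical), shFAK to shNC on the left and norepinephrine to vehicle on the right, with black ticks at the medians. The grey band runs from the lower 5th to the higher 95th percentile of all genes over the pairs drawn. The hairpin medians of the lists lie between 0.04 and 0.42; those of the members, 1.55 and 1.26, describe genes chosen on this contrast.

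The genes whose levels over the 4 libraries were most like those of Il33 were sought among 9161 candidates, protein-coding and at a mean CPM of 5 or more. Likeness was the Euclidean distance between log2 CPM values centred over the 4 libraries. The nearest was Spink8, a serine protease inhibitor gene of the Kazal type, at a distance of 0.41, with 76 and 134 counts in shNC and 203 and 235 in shFAK. Slpi was next at 0.47. Wnt4, a secreted Wnt ligand, followed at 0.52 with 2068 and 3253 counts in shNC and 4138 and 5394 in shFAK, then Mcf2l at 0.63 and Vipr1, a receptor for vasoactive intestinal peptide, at 0.67. For Cxcl5 the nearest were Igfbp5 at 0.30, Ablim1 at 0.40, Fbln2 and Slpi at 0.44 each and Steap4 at 0.47. Slpi was the only gene among the 5 nearest to both. As Il33, Cxcl5 and Slpi all belong to the set chosen on the hairpin contrast, this nearness is partly built into the choice. These distances rest on 4 libraries and describe them only. Wnt4 shares short stretches with 178 other annotated genes, and Cebpd, Cp, Flt3l, Il1rap, Il1rl1, Il6ra, Map3k7, Mcf2l, Nfkb2 and Tnfsf10 share stretches with 1 or 2 each, so their counts carry that uncertainty.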

How the data were processed

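The authors deposited raw read counts per gene, 1 column per library. Alignment tool HISAT2 2.0.5, counting tool featureCounts 1.5.0-p3 and build mm10 are named per the submitters' processing notes; the annotation release, strand setting and treatment of multi-mapping reads are not given in the sources used here. Columns were matched to samples by title. From the deposited counts, TMM effective library sizes were computed with edgeR 4.0.16 in R 4.3.3 on the 12351 genes with at least 1 CPM in at least 1 library. For this filter, CPM was computed from library totals without TMM factors. Log2 ratios used a prior count of 2. Exact 99% Clopper-Pearson intervals, and for differences of ratios and levels normal and Poisson ones, cover counting error only. Reads amplified by PCR and lacking molecular identifiers are not independent. With 1 library per group, no test was made. The computations were tested on simulated data. Shared stretches were found with BLAST 2.17.0 on GENCODE M21 transcripts (at least 100 bases at 95% identity or more).

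The members and lists were chosen with earlier results of these data known. Named genes were the members, Ptk2, the chromosome 5 chemokines and serum amyloid genes, and the 5 genes nearest in pattern to Il33 and to Cxcl5. From each list came genes of at least 1 mean CPM past the size rule in both pairs of a contrast, plus up to 4 by hairpin ratio and 2 by norepinephrine ratio. Some marker genes are not reported here.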

Additional observations from a re-analysis of the deposited data

How the results depend on the processing

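In all, 10 alternatives were run: scaling by upper quartile, by DESeq2 1.42.0, by library totals or by protein-coding genes; a filter at 5 CPM or none; a prior count of 0.5 or 10; a 1.5-fold rule; and the gene-length trend taken off. Of 435 values of single members under them, 425 kept their call and, where not called, stayed within the main counting interval. In 7 values that were not called the sign changed. The Csf1 hairpin ratio under norepinephrine fell from 0.49 to 0.35 with the length trend taken off, just past the lower end of its main interval. Under vehicle, Csf1 (0.64) met the 1.5-fold rule. With at least 5 CPM, 4 members met the rule in each hairpin pair, since Saa3, Cxcl2 and Lcn2 were no longer tested, and 0 listed genes did in either. With a prior count of 10, Cxcl2 (0.85) and Lcn2 (0.97) no longer met it under norepinephrine, nor did Cxcl2 without a filter (0.98), and 1 listed gene met it there. With upper-quartile factors 1 member, Il33, met the rule with norepinephrine in shNC. At 1.5-fold, 2 members, Il33 and Slpi, met it in each line, as did 2 listed genes in shNC and 3 in shFAK, and 11 listed genes in each hairpin pair. The interval of Cxcl5 for the difference of responses left out 0 under all 10. Over all genes, 14 to 193 met the rule higher and 15 to 267 lower with norepinephrine in shNC, and the split of 45 higher and 61 lower was 36 and 78 with the length trend taken off. The ranges were 10 to 351 and 4 to 53 in shFAK, 69 to 456 and 17 to 197 for the hairpin under vehicle, 111 to 1002 and 25 to 389 under norepinephrine, and 10 to 147 and 12 to 84 for the difference.

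No paired analysis was possible because each group has 1 library and the labels give no replicate numbers. For the same reason no library could be left out. Depth limits Saa3, Cxcl2, Lcn2 and Cxcl12, each with at most 25 counts in every shNC library.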

Other observations

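The nearest genes on each side of the 9 measured inflammatory genes that passed the filter were also read, 16 genes besides the members themselves. Of these, Saa2 alone met the size rule in the hairpin pairs, and none met it with norepinephrine. The neighbour with the next highest hairpin ratios was Wfdc12, a WAP-family gene 163462 bases from Slpi. Counts of Wfdc12 were 918 and 1353 in shNC (vehicle, then norepinephrine) and 1521 and 1961 in shFAK. Its log2 ratios of shFAK to shNC were 0.89 and 0.69, and those of norepinephrine to vehicle 0.71 in shNC and 0.51 in shFAK, the same order of libraries as for Slpi and Il33. Sdc4, on the other side of Slpi, was at 0.01 and -0.11 in the hairpin pairs. Ranbp6 and Uhrf2, which flank Il33, were at 0.20 and 0.10 under vehicle and at 0.42 and 0.16 under norepinephrine. The neighbours named here were chosen after their values were seen.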
